A study of Homo sapiens with 9 samples.

Results

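The RNA levels of 10 genes of the ATR checkpoint were described in SKMEL28 melanoma cells: ATR, ATRIP, TOPBP1, CLSPN, CHEK1, RAD17, RAD9A, HUS1, RAD1 and WEE1. The genes were taken by exact symbol, 10 of the 48162 genes in the deposited tables. No measured value entered that rule, but earlier results of these data were known when the genes were chosen. All 10 were among the 15776 genes with enough counts to be tested.

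SKMEL28 is an established human melanoma cell line. The RNA-seq set held 9 libraries in 3 groups of 3: a control transduced with lentivirus for an shRNA against GFP (shCont), cells with an shRNA against p16, the product of CDKN2A (shp16), and cells with shRNAs against both p16 and ATR (shp16/shATR). All cells were selected with puromycin before RNA was harvested, so the control also carried virus and had been through selection. The labels name 1 cell line and do not say whether the libraries of a group came from separate cultures or transductions. The paper describes its lanosterol synthase mRNA data as a single experiment in 3 technical replicates, without saying whether those are these libraries. The p-values below therefore measure only the spread between these libraries, which may be technical. Which ATR hairpin was used was not given in the sources used here, nor whether the shp16 cells carried a control hairpin beside shp16. There was no group with shATR alone.

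ATR is a protein kinase that is recruited with its partner ATRIP to single-stranded DNA coated with RPA, as at a stalled replication fork. The RAD17 clamp loader places the RAD9A-HUS1-RAD1 ring on the DNA, the ring brings in TOPBP1, and TOPBP1 switches the kinase on. Claspin, the product of CLSPN, then holds CHK1, the product of CHEK1, where ATR phosphorylates it, and CHK1 together with WEE1 restrains the cyclin-dependent kinases that drive cells into S phase and mitosis. The pathway limits origin firing and protects forks in cycling cells, and several of its genes are transcribed mainly in S and G2 phase.

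Between 17314662 and 23588174 reads were counted per library. All 9 melanocytic marker genes were detected, with a summed level, in TMM-scaled counts per 1e6 reads (CPM), of 13482 to 15085 in shCont, 7845 to 13100 in shp16 and 11060 to 13172 in shp16/shATR. In shp16 replicate 1, which had the lowest sum, PMEL was at 3258 CPM, against 7839 and 7763 CPM in the other shp16 libraries. Between shp16/shATR and shp16, TYRP1 fell by 0.88 on the log2 scale, and S100B and PAX3 rose by 0.67 and 0.62. Between shp16 and shCont, TYRP1 fell by 0.43 and S100B by 0.68. Between shp16/shATR and shCont, TYRP1 fell by 1.31, PAX3 rose by 0.47 and S100B was at -0.0074. Of the leukocyte markers, 2 of 3 had no count in any library. The 4 fibroblast markers summed to 32.6 to 42.7 CPM in shCont, 26.6 to 45.2 CPM in shp16 and 30.3 to 32.6 CPM in shp16/shATR, most of it LUM. Among them DCN alone passed the test, 2.14 higher in shp16/shATR than in shCont on the log2 scale. The endothelial markers summed to at most 3.12 CPM in any library. Of 4 keratinocyte markers, KRT5, KRT14 and KRT1 were at 0 to 0.154 CPM in shCont, and the list summed to 6.53 to 14.99 CPM in shp16 and 2.87 to 8.94 CPM in shp16/shATR. The 3 epithelial markers summed to 4.21 to 6.01 CPM in shCont, 20.05 to 22.1 CPM in shp16 and 24.02 to 26.6 CPM in shp16/shATR, and CDH1 alone passed the test among them (2.90 higher in shp16 than in shCont on the log2 scale). Genes of several of these lists moved between the same groups as the checkpoint genes, and their part in the results below was not tested. As in any bulk RNA, fewer cells of a type and less RNA per cell cannot be told apart.

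The libraries stood apart in 2 places. The library labelled shCont replicate 1 differed from the other control libraries by a root mean square log2 difference of 0.633 and 0.667, against 0.363 between those 2. The library shp16 replicate 1 differed from the other shp16 libraries by 0.501 and 0.506, against 0.345 between them. In shCont replicate 1 the deviation followed exon length: relative to the mean of replicates 2 and 3, the median gene was 0.29 higher on the log2 scale among the shortest genes, those of 48 to 2239 bases, and -0.34 among the longest, those of 4041 bases or more. For shp16 replicate 1 the same medians were -0.07 and 0.06.

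Several checkpoint genes are long, and 4 of the 5 in the longest group were below that median in this library. ATR, with 8249 exonic bases, was at -1.05 in shCont replicate 1 against the other controls, and 5.86% of all tested genes were lower than that. CLSPN (4769 bases) was at -0.89, TOPBP1 (5378 bases) at -0.64 and WEE1 (5187 bases) at -0.60. RAD1, also long at 5770 bases, was at -0.17. At the short end RAD9A (2119 bases) was at 0.75 and ATRIP (2721 bases) at 0.40. The control means of ATR, CLSPN, TOPBP1 and WEE1 are lower, and their spread wider, with this library than without it, so the comparisons are given with it and, where it changed a call, without it.

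**Figure D1:**
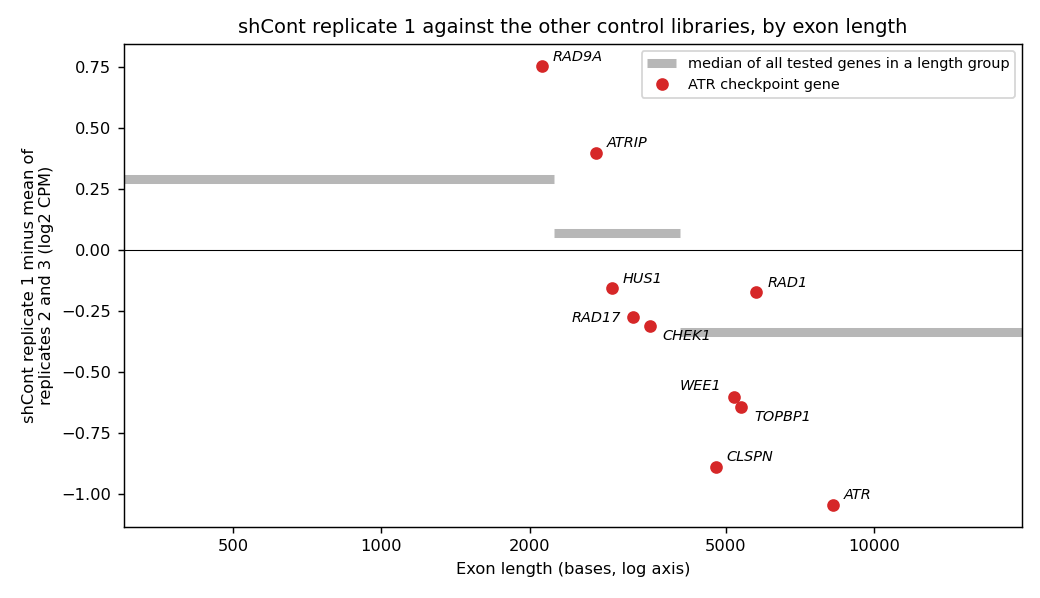
Difference of shCont replicate 1 from the mean of shCont replicates 2 and 3 (log2 CPM, vertical axis) against exon length (bases, log axis); red points are the 10 checkpoint genes and grey bars the medians of all tested genes in 3 length groups. ATR at -1.05 and RAD9A at 0.75 are the ends of the range, and the grey medians fall from 0.29 to -0.34.

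The targets of the hairpins were looked at first. ATR stood at 45.9, 93.5 and 96.4 CPM in shCont replicates 1 to 3, at 93.5, 83.4 and 85.6 CPM in shp16 replicates 1 to 3, and at 39.9, 40.0 and 41.0 CPM in the 3 shp16/shATR libraries (called a, b and c, since all 3 of their count columns carry the number 1). The shp16/shATR libraries lay below every other library, but shCont replicate 1 lay much closer to them than to the other controls. Against shp16, ATR fell by 1.12 on the log2 scale in shp16/shATR (SE 0.22, 95% interval -1.60 to -0.64, edgeR adjusted p = 0.0128), which left 46.1% of its level in shp16.

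CDKN2A was at 162, 113 and 103 CPM in shCont, at 78.1, 93.5 and 99.9 CPM in shp16, and at 82.6, 90.0 and 82.4 CPM in shp16/shATR. All control libraries were higher than all others, and replicate 1 was the highest of them. The gene count does not separate the p16 transcript from the ARF transcript of the same locus. The difference between shp16 and shCont, -0.48, did not pass the test (edgeR adjusted p = 0.0723), and that between shp16/shATR and shCont, -0.57, did (adjusted p = 0.0263). Both were computed with shCont replicate 1, and CDKN2A, with 1283 exonic bases, is in the length group that was higher in that library. Over shCont replicates 2 and 3 its mean was 108 CPM, beside 126 CPM with replicate 1, 90.5 CPM in shp16 and 85.0 CPM in shp16/shATR. No tested difference without that library is given for this gene.

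**Figure D2:**
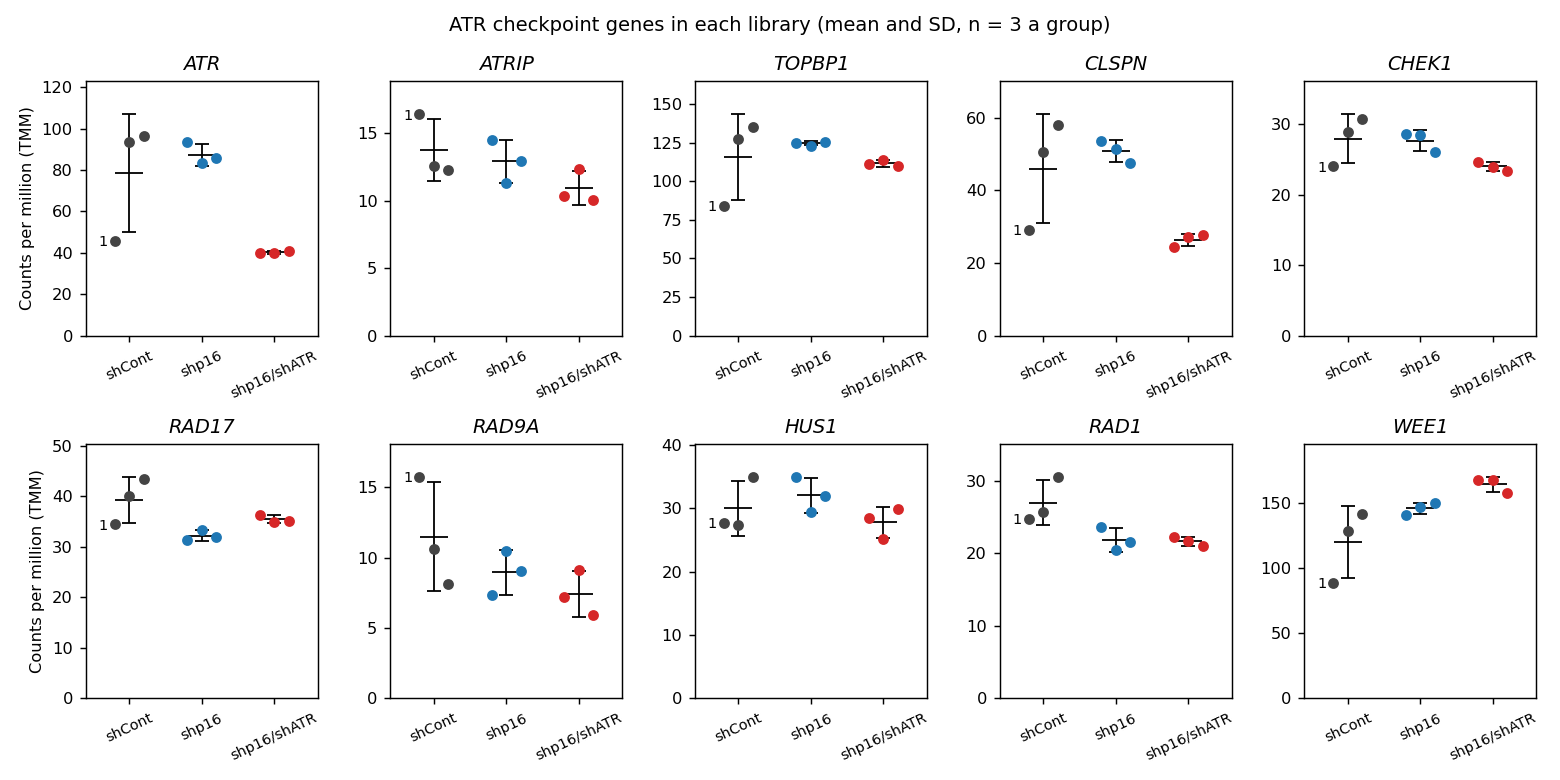
Level of each checkpoint gene (CPM after TMM scaling, vertical axis from 0) in every library of shCont, shp16 and shp16/shATR; points are libraries, bars the mean and SD of 3 libraries, and shCont replicate 1 carries its number. ATR and CLSPN in shp16/shATR sit at 39.9 to 41.0 and 24.4 to 27.6 CPM, below all shp16 libraries.

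The comparison of shp16/shATR with shp16 asked what changed with ATR knockdown in cells already carrying shp16. ATR itself and CLSPN fell, and none of the 10 genes rose past the threshold, an adjusted p under 0.05 over all 15776 genes. Of all tested genes, 3.49% were called lower and 2.73% higher here. The median log2 difference over the 10 genes was -0.21, beside 0.0021 over all tested genes. ATR, the target of the added hairpin, is counted in this median and in each count of called genes for shp16/shATR.

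CLSPN encodes claspin, the adaptor through which ATR reaches CHK1. It stood at 29.2, 50.6 and 58.0 CPM in shCont, at 53.5, 51.3 and 47.5 CPM in shp16, and at 24.4, 27.0 and 27.6 CPM in shp16/shATR. The shp16/shATR libraries held about the same CLSPN as each other and less than every other library, with shCont replicate 1 just above them. Relative to shp16, CLSPN fell by 0.94 in shp16/shATR (SE 0.20, 95% interval -1.39 to -0.50, edgeR adjusted p = 0.0186), to 51.9% of its shp16 level.

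The calls for ATR and CLSPN depended on which libraries were in the fit, where the spread is shared over all 9 libraries. Leaving out a library of a compared group also makes that group smaller, and the part of each was not tested. With only the groups compared in the fit, both genes stayed called. Without shCont replicate 1, which is in neither group, the SE of ATR was 0.067 and that of CLSPN 0.083, and their adjusted p-values were 1.7e-06 and 2.2e-05. Leaving out shp16 replicate 1 or any one of the shp16/shATR libraries kept the direction of both but ended both calls, with adjusted p between 0.0554 and 0.104. Leaving out shp16 replicate 2 or 3 ended the call of CLSPN alone, at 0.0648 and 0.0536.

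The levels of the ATR gene and CLSPN were low in the same libraries. Over the 9 libraries, Pearson's r of their log2 CPM was 0.991, and CLSPN ranked 2 among the 9464 genes with a mean of at least 10 CPM by likeness to ATR, after KLHL23 and before LIMD1, ATAD2 and THUMPD1. The genes most like CLSPN were ATR, KLHL23, ATAD2 (an AAA ATPase of S phase chromatin), ITGA9 and TMX1. The 9 libraries formed 2 clusters, the shp16/shATR libraries with shCont replicate 1 and the other 5, so these values describe that split, and neither cluster is large enough for a value of its own. CHEK1 ranked 110 by likeness to ATR (r = 0.918) and ATRIP, the protein partner of ATR, ranked 3211 (r = 0.267).

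**Figure D3:**
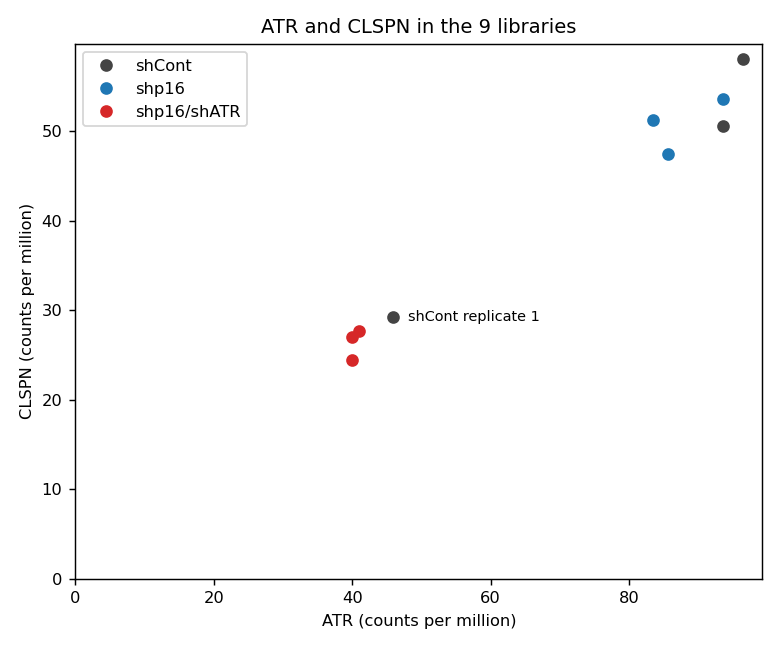
CPM of CLSPN (vertical axis) against CPM of ATR (horizontal axis) in the 9 libraries, each point a library coloured by group. The shp16/shATR libraries and shCont replicate 1 lie at 39.9 to 45.9 CPM of ATR and 24.4 to 29.2 CPM of CLSPN, apart from the other 5 libraries.

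The promoters of ATR and CLSPN are shown because these genes moved together, and that of TOPBP1 because it held one of the words searched. As background, E2F factors drive S phase genes and p16 acts upstream of them. RefSeq promoter windows (GRCh38.p14, 250 bases before to 50 after the start) were found for 8 of the 10 genes, 13 windows in all; HUS1 and WEE1 were not matched. They were searched on both strands for the E2F words TTTCCCGC, TTTCGCGC, TTTGCCGC and TTTGGCGC and for the cell cycle word TTTGAA. Each sequence runs from 150 bases before the start to 10 after it on the gene's own strand, which is the minus strand for all 3, with the matched word in capitals.
ATR, chr3:142578724-142578883: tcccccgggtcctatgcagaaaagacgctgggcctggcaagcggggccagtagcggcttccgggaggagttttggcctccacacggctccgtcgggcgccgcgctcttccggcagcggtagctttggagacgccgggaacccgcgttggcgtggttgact
CLSPN, chr1:35769969-35770128: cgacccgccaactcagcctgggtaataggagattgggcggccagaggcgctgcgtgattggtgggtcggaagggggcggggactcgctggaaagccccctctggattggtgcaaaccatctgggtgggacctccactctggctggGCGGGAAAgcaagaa
TOPBP1, chr3:133661932-133662091: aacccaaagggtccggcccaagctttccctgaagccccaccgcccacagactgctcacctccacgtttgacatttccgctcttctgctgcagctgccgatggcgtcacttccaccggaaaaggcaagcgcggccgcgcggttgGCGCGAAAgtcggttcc

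CLSPN carried the word TTTCCCGC in reverse, beginning 5 bases before the start, and 1.63% of all 35116 promoter windows hold that word. TOPBP1 carried TTTCGCGC in reverse, beginning 7 bases before the start, and 0.515% of windows hold it. Any of the 4 E2F words was found in 2 of the 13 windows, beside 3.31% of all windows. In the ATR window none of the letters searched were present, and TTTGAA was found only in 1 of the 13 windows, one of RAD17, beside 15.2% of all windows. These matches describe letters in a window and say nothing of binding.

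ATRIP, which holds ATR at RPA-coated DNA, was at 16.4, 12.6 and 12.2 CPM in shCont, at 14.5, 11.3 and 12.9 CPM in shp16, and at 10.3, 12.4 and 10.04 CPM in shp16/shATR. The groups overlapped. Its difference of -0.24 (SE 0.16) between shp16/shATR and shp16 did not pass the test (edgeR adjusted p = 0.451), with a 95% interval of -0.59 to 0.11. Per transcript length, in FPKM, the ratio of ATR to ATRIP was 2.25 ± 0.158 in shp16 and 1.23 ± 0.147 in shp16/shATR (mean ± SD, n = 3). Among the controls it was 0.925 in replicate 1 and 2.45 and 2.598 in the others. ATRIP shares its strand and part of its span with TREX1, a DNA exonuclease gene with a median of 296 counts, so reads of the shared part could have been assigned to either.

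TOPBP1, the activator of the kinase, was at 84.1, 128 and 135 CPM in shCont, at 125, 123 and 126 CPM in shp16, and at 111, 114 and 110 CPM in shp16/shATR. The shp16/shATR libraries lay below all shp16 libraries, at 89.7% of their level, but the difference of -0.16 was about the size of its error (SE 0.15, edgeR adjusted p = 0.632). CHEK1, the effector kinase, was also lower in every shp16/shATR library than in every shp16 library, with 24.03, 28.9 and 30.8 CPM in shCont, 28.6, 28.4 and 26.0 CPM in shp16, and 24.7, 23.9 and 23.4 CPM in shp16/shATR. Its difference from shp16 was -0.20 (SE 0.12, adjusted p = 0.369). The CHEK1 span begins inside that of STT3A on the same strand, a gene of the oligosaccharyltransferase with a median of 3656 counts. TOPBP1 overlaps no other gene in the table.

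RAD17 encodes the subunit that turns replication factor C into the loader of the checkpoint ring. It stood at 34.5, 40.1 and 43.4 CPM in shCont, at 31.3, 33.3 and 32.03 CPM in shp16, and at 36.3, 34.9 and 35.2 CPM in shp16/shATR. The shp16 libraries were the lowest and did not overlap either other group. Neither difference passed the test: -0.29 for shp16 against shCont (SE 0.11, edgeR adjusted p = 0.104) and 0.14 for shp16/shATR against shp16 (SE 0.11, adjusted p = 0.544). RAD17 overlaps TAF9 on the opposite strand, which had a median of 1390 counts, and the strand setting of the counting was not given.

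Among the ring subunits, RAD1 was at 24.8, 25.6 and 30.5 CPM in shCont, at 23.6, 20.4 and 21.5 CPM in shp16, and at 22.3, 21.7 and 21.0 CPM in shp16/shATR. Every control library was above every other. HUS1 was at 27.7, 27.3 and 34.9 CPM in shCont, at 34.9, 29.4 and 31.8 CPM in shp16, and at 28.4, 25.1 and 29.8 CPM in shp16/shATR, with all groups overlapping. RAD9A, the least abundant in counts, was at 15.7, 10.6 and 8.14 CPM in shCont, at 7.32, 10.5 and 9.07 CPM in shp16, and at 7.21, 9.13 and 5.89 CPM in shp16/shATR, and its groups overlapped too. In FPKM the ratio of RAD1 to HUS1 was 0.460 ± 0.0167 for shCont, 0.347 ± 0.00544 for shp16 and 0.399 ± 0.0409 for shp16/shATR (mean ± SD, n = 3). RAD1 overlaps BRIX1 and RAD9A overlaps PPP1CA, both on the opposite strand, and the HUS1 span in the table contains PKD1L1.

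For the comparison of ATR knockdown with shp16, 6 of the 10 genes had groups that did not overlap, 4 lower (ATR, TOPBP1, CLSPN and CHEK1) and 2 higher (RAD17 and WEE1). Of all tested genes, 37.7% had no overlap in this comparison. With 3 libraries against 3, the smallest two-sided p of an exact permutation test is 0.1, so separation alone cannot pass 0.05 for a single gene.

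WEE1 encodes the kinase that holds CDK1 inactive by tyrosine phosphorylation. It stood at 88.8, 129 and 142 CPM in shCont, at 141, 147 and 150 CPM in shp16, and at 168, 167 and 158 CPM in shp16/shATR. Its libraries were highest in shp16/shATR, above all others, and lowest in shCont replicate 1. Against shp16 the difference was 0.17 (SE 0.15, edgeR adjusted p = 0.581), and against shCont WEE1 rose by 0.46 (SE 0.15, 95% interval 0.13 to 0.78, adjusted p = 0.0448). The call was close to the threshold and was kept under 8 of 19 alternative settings. Without shCont replicate 1 the rise was smaller, 0.28 (SE 0.070), with an adjusted p of 0.00975.

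The genes most like WEE1 over the 9 libraries were SETD5, MLLT4, RASA2, ANKRD44 and FAM102B, with r from 0.988 to 0.996. WEE1 was at 88.8 CPM in shCont replicate 1 and at 129 to 168 CPM in the other libraries, and r was not computed without that library. No other checkpoint gene was among them, and RAD9A, below a mean of 10 CPM, was not ranked. WEE1 overlaps no other gene in the table, so its reads are not shared with a neighbour.

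**Figure D4:**
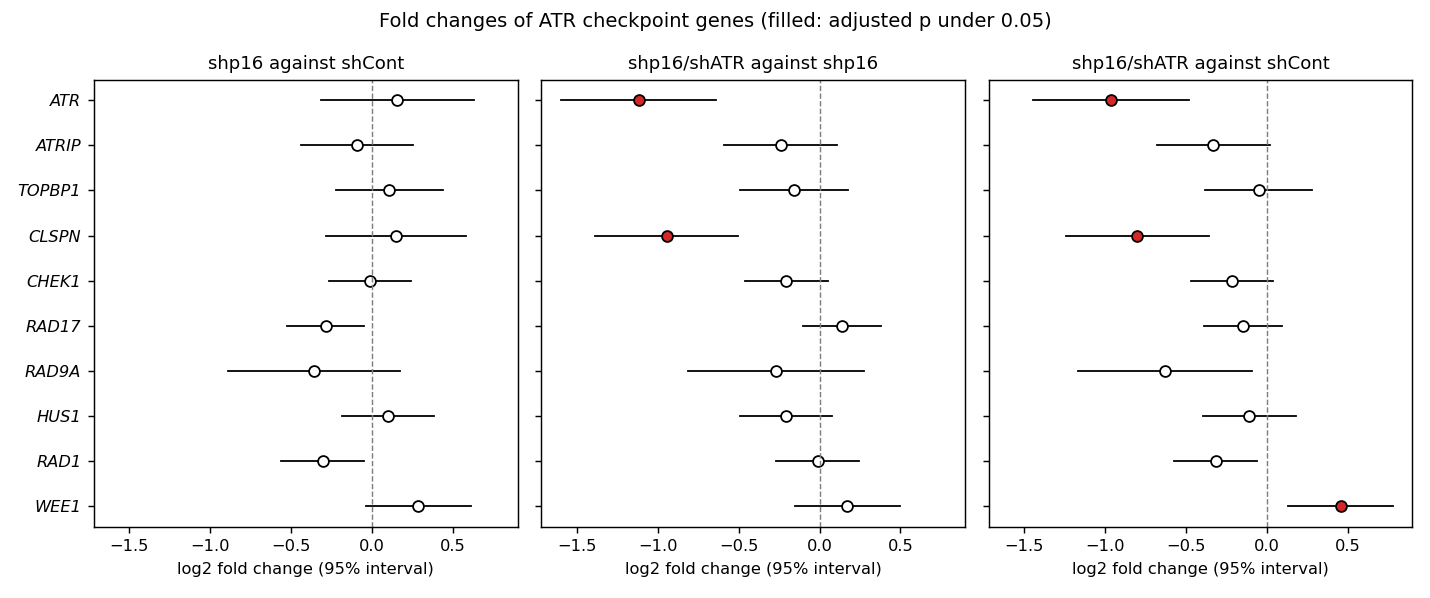
Log2 fold changes of the 10 checkpoint genes (points) with 95% intervals (lines). From left to right, they are for the p16 hairpin alone, for ATR knockdown added to it, and for both hairpins against the control. Filled points passed an adjusted p of 0.05. ATR and CLSPN are filled in both comparisons of shp16/shATR, WEE1 only against shCont, and no point is filled for shp16 against shCont.

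The p16 hairpin alone was the comparison of shp16 with shCont. None of the 10 genes passed edgeR's quasi-likelihood test at an adjusted p of 0.05, while 2, RAD17 and RAD1, had an unadjusted p under 0.05. DESeq2 called none, and limma on log2(FPKM + 1) called none. Of all tested genes 7.23% were called higher and 7.59% lower. The groups did not overlap for the same 2 genes, both lower in shp16, beside 33.6% of all tested genes.

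RAD1 differed by -0.30 (SE 0.12, 95% interval -0.56 to -0.05, edgeR adjusted p = 0.107), much like the -0.29 of RAD17. WEE1 differed by 0.28 (SE 0.15, adjusted p = 0.227) and RAD9A by -0.36 (SE 0.24, adjusted p = 0.353). For the kinase and its adaptor the values were 0.15 for ATR, with an interval of -0.32 to 0.63, and 0.14 for CLSPN, with an interval of -0.29 to 0.58. CHEK1 differed by -0.01, within -0.27 to 0.24.

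shCont replicate 1 decided much of this comparison. Without it, RAD17 fell by 0.38 (edgeR adjusted p = 0.00331) and RAD1 fell by 0.37 (adjusted p = 0.0182), so 2 of the 10 genes were called. In the same fit 13.4% of all genes tested were called higher and 12.5% lower. ATR then stood at -0.12, CLSPN at -0.10 and TOPBP1 at -0.08, each with its sign turned and none called. With shp16 replicate 1 left out alone no gene was called. Leaving out both, a setting chosen after seeing the data, kept 2 libraries each of shCont and shp16. ATR was then at -0.17 and passed the test (edgeR adjusted p = 0.0421), and 3 genes were called. In that fit 16.9% of all genes were called higher and 15.8% lower.

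The 2 hairpins together were compared with the control as shp16/shATR against shCont. ATR fell by 0.96 (SE 0.22, edgeR adjusted p = 0.00832) and CLSPN fell by 0.80 (SE 0.20, adjusted p = 0.0139), while WEE1 rose as given above. These 3 of 10 genes, of which ATR is itself a hairpin target, stand beside 10.9% of all tested genes called higher and 12.7% called lower. The median over the 10 genes was -0.27, beside -0.018 over all tested genes. This comparison shares its shp16/shATR libraries with that against shp16, and its control libraries with that of shp16 against shCont.

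In 4 of the 10 genes the groups did not overlap (ATR, CLSPN and RAD1 lower, WEE1 higher), beside 41.5% of all tested genes. RAD9A differed by -0.63 (SE 0.25) and RAD1 by -0.32 (SE 0.12), with edgeR adjusted p-values of 0.0859 and 0.0726. Without shCont replicate 1, 7 of the 10 genes were called: WEE1 higher, and ATR, CLSPN, TOPBP1, CHEK1, RAD17 and RAD1 lower. In that fit ATR fell by 1.24 and CLSPN by 1.05, RAD1 fell by 0.38, CHEK1 by 0.32, and TOPBP1 and RAD17 each fell by 0.24. Over all genes tested in that fit, 15.9% were called higher and 17.5% lower. ATRIP, RAD9A and HUS1 were not called in either fit.

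The step from shp16 to shp16/shATR was also set against the step from shCont to shp16, as a difference of the 2 differences, both of which contain the shp16 libraries. None of the 10 genes was called by edgeR, and 3 (ATR, CLSPN and RAD17) had an unadjusted p under 0.05. Of all tested genes 2.45% were called higher and 3.35% lower. ATR was at -1.27 (SE 0.37, adjusted p = 0.0662) and CLSPN at -1.09 (SE 0.34, adjusted p = 0.0831). Without shCont replicate 1, 3 genes were called, beside 7.94% of all genes higher and 11.1% lower: ATR at -0.99 (SE 0.12, adjusted p = 0.000191), CLSPN at -0.84 (SE 0.15, adjusted p = 0.00231) and RAD17 at 0.52 (SE 0.12, adjusted p = 0.0122).

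Levels per transcript length, in FPKM, allow the genes to be ranked against each other. In shp16, WEE1 at 28.0 ± 2.23 and TOPBP1 at 23.1 ± 1.12 were the most abundant (mean ± SD, n = 3), and they did not overlap. HUS1 (10.8 ± 0.508), CLSPN (10.6 ± 0.411), ATR (10.5 ± 0.156) and RAD17 (9.94 ± 0.769) formed a middle group whose libraries overlapped. CHEK1 followed at 7.87 ± 0.395, and ATRIP (4.71 ± 0.386), RAD9A (4.23 ± 0.926) and RAD1 (3.76 ± 0.12) were lowest, with RAD9A overlapping both of its neighbours.

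With shATR added, the order changed in the middle. ATR dropped to 4.88 ± 0.0372 FPKM and CLSPN to 5.52 ± 0.348 FPKM, both below CHEK1 at 6.85 ± 0.254 FPKM and clear of it. WEE1 at 31.6 ± 1.56 FPKM and TOPBP1 at 20.8 ± 0.746 FPKM remained the top 2. In shCont the highest 2 were the same genes, WEE1 at 23.2 ± 5.95 FPKM and TOPBP1 at 21.7 ± 5.78 FPKM, and they overlapped each other. The ratio of CLSPN to CHEK1 in FPKM was 1.35 ± 0.0265 in shp16 and 0.807 ± 0.0729 in shp16/shATR, and that of WEE1 to CHEK1 was 3.56 ± 0.285 and 4.61 ± 0.0891. In shCont replicate 1 the ratio of CLSPN to CHEK1 was 0.892, near the shp16/shATR libraries, whereas that of WEE1 to CHEK1 was 2.50, the lowest of all.

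**Figure D5:**
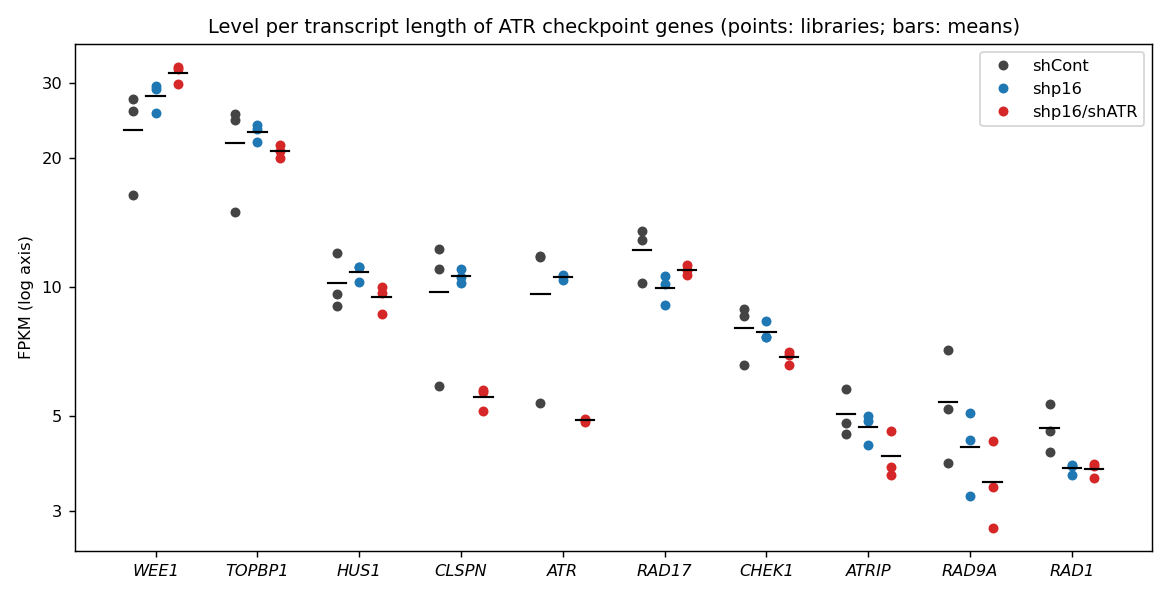
FPKM of the 10 checkpoint genes (log axis), ordered by their mean in shp16, with points for libraries and short bars for group means. WEE1 and TOPBP1 lie at the top in every group, and ATR and CLSPN drop from about 10.5 and 10.6 FPKM in shp16 to 4.88 and 5.52 FPKM in shp16/shATR.

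Around the core stand 38 further genes of the pathway in 6 lists, none of them among the 10. In shp16/shATR against shp16, 4 of the 38 fell and none rose, beside 3.49% of all tested genes lower and 2.73% higher. Their median difference was -0.24, beside 0.0021 over all tested genes. The 4 were RFC5, a replication factor C subunit (-0.46, SE 0.09), PKMYT1, a kinase that inhibits CDK1 beside WEE1 (-0.86, SE 0.16), CCNA2, cyclin A2 (-0.52, SE 0.12), and PPM1D, a phosphatase that switches checkpoint signalling off (-0.54, SE 0.12). Their edgeR adjusted p-values ran from 0.00884 to 0.0279.

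By list, the clamp loader and ring partners gave 1 lower of 7, and the turnover genes gave 1 lower of 7. The CDK-side genes, a list that holds cyclins and PKMYT1 beside targets of CHK1 and WEE1, gave 2 lower of 8, PKMYT1 and CCNA2. No gene passed among the 4 of RPA and ETAA1, the 3 fork protection partners of claspin or the 9 of the ATM arm. The groups did not overlap for 7 of the 9 genes of the ATM arm, 6 of the 7 turnover genes and 3 of the 3 fork protection partners. The same held for 5 of the 8 CDK-side genes, 3 of the 7 clamp loader and ring partners and 1 of the 4 of RPA and ETAA1. Over the 38 genes it held for 25, beside 37.7% of all tested genes. The fork protection partners, TIMELESS, TIPIN and WDHD1, had differences of -0.53 to -0.25.

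In shp16 against shCont 3 of the 38 rose and 2 fell, shares close to the 7.23% and 7.59% of all tested genes, with a median of 0.086. MDC1, a scaffold of the ATM response, rose from 48.2 ± 3.69 to 83.4 ± 4.15 CPM (mean ± SD, n = 3), a log2 change of 0.79 (SE 0.10, edgeR adjusted p = 0.000383). CCNA2 rose by 0.44 (SE 0.12) and HUS1B, a HUS1 paralog with a mean of 5 counts in shCont and 17 in shp16, by 1.79 (SE 0.48). ETAA1, the other direct activator of ATR, fell by 0.45 (SE 0.12), and RHNO1, which binds the ring and TOPBP1, fell by 0.40 (SE 0.11).

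In shp16/shATR against shCont 4 of the 38 rose and 6 fell, shares close to the 10.9% and 12.7% of all tested genes, with a median of -0.17. The genes that rose were MDC1 (0.47), TP53BP1 (0.49), RPA1 (0.39) and HUS1B (1.74). Those that fell were RFC2 (-0.54), RFC4 (-0.63), RHNO1 (-0.41), CDC25C (-0.46), CDK1 (-0.44) and PKMYT1 (-0.89). Their SEs lay between 0.098 and 0.48, and the edgeR adjusted p-values between 0.00183 and 0.0421. The called genes of the 38 numbered 5 for the p16 hairpin alone, 4 for ATR knockdown on top of it and 10 for both hairpins. Without shCont replicate 1 these counts were 11, 14 and 16. Of all genes tested in that fit, 13.4% were higher and 12.5% lower in the first of these comparisons, 8.94% and 11% in the second, and 15.9% and 17.5% in the last.

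The genes lie on 5 chromosomes. As the deposited table places them, ATR is at chr3:142168077-142297668 on the minus strand, CLSPN at chr1:36185819-36235568 on the minus strand and WEE1 at chr11:9595228-9615004 on the plus strand. ATRIP and TOPBP1 are also on chromosome 3, CHEK1 and RAD9A on 11, RAD17 and RAD1 on 5, and HUS1 on 7. These are positions of GRCh37. In GENCODE 29, on GRCh38, none of the 10 genes has the same start and end, so they cannot be set beside the promoter windows above.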

How the data were processed

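RNA from SKMEL28 cells was sequenced by the study's provider, and the authors deposited a table of read counts per gene and a table of FPKM per gene for the 9 libraries. The submitters' processing notes name STAR 2.6.1, DESeq2 and GRCh38; the counting program, annotation and strand setting were not given in the sources used here. Each deposited FPKM value was the count divided by exon length and scaled to the library's total. The 3 count columns of shp16/shATR share one header, with replicate number 1 in each, and were matched to the FPKM columns by their values. No column was left unused.

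Genes were filtered with filterByExpr (15776 of 48162 kept), scaled by TMM and tested with edgeR 4.0.16 (quasi-likelihood F test, all 9 libraries in 1 fit, no covariate, R 4.3.3), with Benjamini-Hochberg adjustment over all tested genes and a threshold of 0.05. SEs were derived from the F statistic, and CPM uses TMM-scaled library sizes. Alternatives used DESeq2 1.42.0, limma 3.58.1 on log2 FPKM, other scalings and filters, and left-out libraries. The fit was tested on simulated data with known changes. Depth was 17314662 to 23588174 counts per library, and no 2 libraries of a group agreed within sampling noise.

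All 10 genes are named. Of the other lists, the genes that passed in a comparison are named, and otherwise at most 2 by size, with the addition of the range of the fork protection partners, which was chosen after their values were seen. For ATR, CLSPN and WEE1 the 5 genes of highest correlation over the libraries are given. The genes, lists and tests were chosen with earlier results of these data known.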

Additional observations from a re-analysis of the deposited data

How the results depend on the processing

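Over 19 alternative settings, the 30 log2 differences of the 10 genes kept direction and side of the threshold in 511 of 570 cases. With the sign kept, 23 lost the call and 16 gained it, and 20 changed sign, in 10 of the 30 differences. A value that changed sign was counted only as such. ATR in shp16 against shCont, with shCont replicate 1 and shp16 replicate 1 both left out, changed sign and was also called. ATR and CLSPN were lower in shp16/shATR in every setting. Counts of called genes per library left out ran from 0 to 2 (2 without shCont replicate 1) for shp16 against shCont, from 0 to 2 for shp16/shATR against shp16, and from 1 to 7 for shp16/shATR against shCont, and ATR in shp16/shATR against shp16 from -1.15 to -1.07. In shp16 against shCont the count was 1 with upper-quartile scaling (RAD17). For shp16/shATR against shp16 it came to 1 with limma on log2(FPKM + 0.1) and 0 at an adjusted p of 0.01, where that against shCont was 1. With shCont replicate 1 and shp16 replicate 1 both left out, a setting chosen after seeing the data, the counts were 3, 3 and 7, beside all-gene shares of 16.9% higher and 15.8% lower, 12.4% and 14.3%, and 21.1% and 23.2%. The other pathway lists gave 11, 14 and 16 calls without shCont replicate 1, and the difference of differences gave 3 of the 10 genes in place of 0, also chosen after seeing the data.

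Signs turned for values that had not passed. With both libraries left out, shp16 against shCont gave -0.17 for ATR, -0.083 for TOPBP1, -0.14 for CLSPN, 0.062 for RAD9A and -0.025 for HUS1, and shp16/shATR against shp16 gave 0.041 for RAD1 (0.026 with upper-quartile scaling). Without the low-count filter, CHEK1 was at 0.0035 in shp16 against shCont. Over single libraries left out, shp16 against shCont ranged from -0.12 to 0.33 for ATR, -0.18 to 0.050 for ATRIP, -0.084 to 0.24 for TOPBP1, -0.10 to 0.35 for CLSPN and -0.12 to 0.065 for CHEK1. RAD1 in shp16/shATR against shp16 ranged from -0.062 to 0.045, and in shp16/shATR against shCont TOPBP1 ranged from -0.24 to 0.076 and HUS1 from -0.17 to 0.014. The cause was not tested.

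Same-numbered libraries of different groups correlated in their deviations at -0.15 to 0.17, and differently numbered ones at -0.22 to 0.25. These values showed no pairing by number, but with so few libraries a group they cannot exclude it. With the replicate number as a block, 0, 2 and 3 of the 10 genes were called, as without it, and ATR was at -1.13 in shp16/shATR against shp16.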
